A study of Hordeum vulgare with 64 samples.

Results

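A group of 77 barley genes kept or raised their RNA in roots after 1 h of waterlogging, lost most of it by 72 h in both varieties, and had leaf RNA as well. They were taken from 39734 rows with HORVU identifiers, of 43050 rows in all, and were chosen by measured values. With d as the mean log2(FPKM + 1) in roots at a time minus that in control roots of the same variety, d was above -0.5 at 1 h and -2 or lower at 72 h in both TX and NN, and the mean over the 4 waterlogging control leaves was at least 1 FPKM (fragments of a gene scaled by its length and by the mapped fragments of its library). The genes were thus selected on their root values at control, 1 h and 72 h and on their control leaf level, which are given as description, without a test. The same fall at 72 h in both varieties was found in 730 HORVU rows, and 530 of these also reached the leaf floor. Of the 530, 416 were already at a d of -0.5 or lower at 1 h in both varieties (early repressed), and 37 were so in 1 variety alone. A further 43 rows had the root pattern of the 77 genes with a control leaf mean under 1 FPKM.

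Roots in waterlogged soil run short of oxygen because gas moves slowly through water. Plant roots then turn from respiration to fermentation, induce a small set of anaerobic genes and lower the RNA of many genes that serve growth, transport and cell wall synthesis, while the shoot stays in air. No table used here paired the HORVU identifiers with names or functions, and none of the identifiers was found in the RefSeq gene table, so the genes are described by their values and only 4 identifiers are given.

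RNA was measured by oligo(dT) selected, strand-marked sequencing in leaves and roots of TX9425 (TX), a tolerant variety, and Nasonijo (NN), a sensitive one, in 2 separate experiments of 32 libraries each. Seedlings at the 3-leaf stage, both varieties in the same pot, were waterlogged, the water standing 1 cm over the soil (1 h, 72 h and 2 w) or given 300 mM NaCl (1 h, 24 h and 10 d), and each experiment had untreated controls at 0 h. No untreated plants of the later ages were analysed here, so time under stress and plant age cannot be told apart. Each of the 32 groups (variety, tissue, time) had 2 libraries in the files, although the methods state 3 biological replicates. Nothing says that the 2 came from separate plants, so p-values measure only how far the 2 libraries of a group vary, and part of that can be technical.

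Some libraries stood apart. Relative depth, read from the steps of low values, was 0.51 to 1.00 of the deepest library in waterlogging roots and 0.196 to 1.00 in waterlogging leaves, against 0.502 to 1.00 in salt roots and 0.447 to 1.00 in salt leaves. The 3 waterlogging leaf libraries with most FPKM in ENSRNA rows (36.1% in NN at 2 w replicate 2, 20.3% in NN at 72 h replicate 1 and 19.3% in TX at 72 h replicate 2) were also the 3 shallowest, at 0.196, 0.314 and 0.32. In waterlogging roots this share was 0.438% to 14.6%, the highest in TX at 1 h replicate 1. Gene lists taken from the salt table followed the tissue labels. The 13 leaf-restricted genes summed to 768 to 1687 FPKM in waterlogging leaves and 0.205 to 1.04 FPKM in waterlogging roots, and the 5 root-restricted genes to 0 to 5.73 FPKM in those leaves and 125 to 261 FPKM in those roots. None of the 77 genes was in either list. In salt roots, TX control replicate 2 correlated more closely with TX at 10 d replicate 2 (r = 0.913 across genes) and with NN at 10 d replicate 1 (r = 0.885) than with TX control replicate 1 (r = 0.866). It was also closer to TX at 24 h replicate 2 (r = 0.892). The 2 TX roots at 10 d had the lowest correlation of any replicate pair in salt roots (r = 0.839). Replicate 1 at 10 d nevertheless correlated with no other salt root library more closely. The labels of these TX root libraries, above all that of TX control replicate 2, are therefore in doubt. Whether any were exchanged or differed for another reason was not tested. Values of TX salt roots are given as labelled, and the counts at 10 d also without each library. Of the 24 genes found only in TX waterlogging roots, 7 exceeded 0.5 FPKM in NN salt roots at 10 d replicate 2 and 7 in NN salt leaves at 1 h replicate 1. Of the 31 genes found only in NN waterlogging roots, 6 and 4 did so in the 2 TX salt root libraries at 10 d.

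In waterlogged roots the genes lost most of their RNA between 1 h and 72 h in both varieties. The library medians over the 77 genes were 23.6 and 27.6 FPKM in TX control roots, 29.0 and 32.9 FPKM at 1 h, 3.49 and 4.73 FPKM at 72 h, and 24.3 and 13.5 FPKM at 2 w. In NN roots they were 27.0 and 22.9 FPKM in controls, 30.8 and 34.3 FPKM at 1 h, 2.61 and 3.19 FPKM at 72 h, and 18.5 and 20.8 FPKM at 2 w. The 4 libraries at 72 h lay far below the other 12, and the genes together made up 0.101% to 0.142% of HORVU FPKM at 72 h against 0.773% to 0.98% in controls. In bulk roots, fewer cells of a type and less RNA per cell cannot be told apart. The leaf-restricted genes summed to 0.224 to 0.496 FPKM in the 72 h roots and 0.205 to 0.45 FPKM in the control roots.

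**Figure D1:**
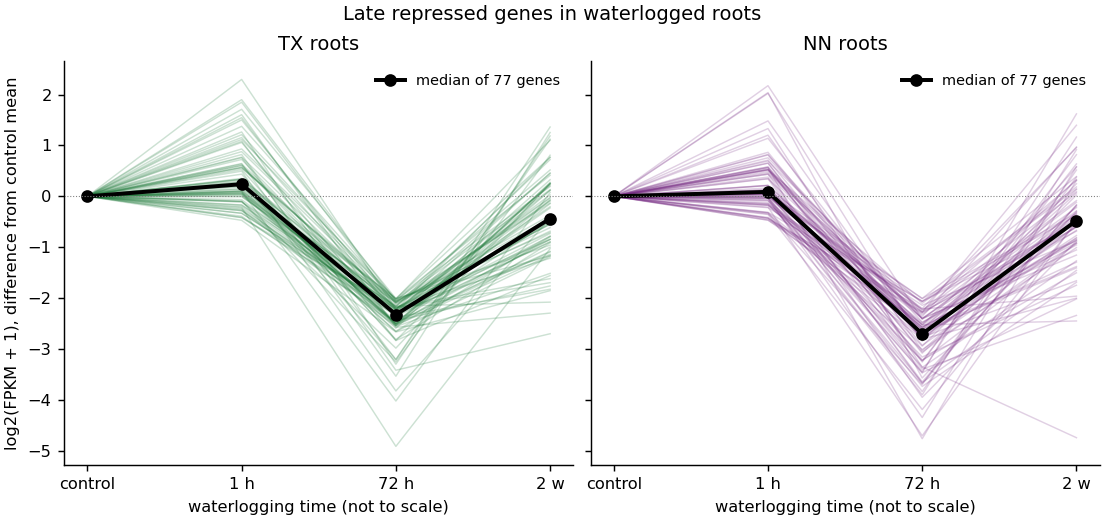
Difference from the control mean in log2(FPKM + 1) for each of the 77 genes (thin lines) and their median (black) in waterlogged roots of TX (left) and NN (right), with time on the x axis not to scale. The medians stood at 0.24 and 0.09 at 1 h, -2.32 and -2.70 at 72 h, and -0.44 and -0.48 at 2 w in TX and NN.

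At 1 h the median d was 0.24 in TX and 0.09 in NN, beside 0.10 and 0.06 over the 22022 rows tested in roots. In both varieties 43 genes were within 0.5 of 0, where 44.9% of rows tested were, and 7 genes had a d above 1, where 8.03% of rows did. In these 7 the 1 h d was 1.21 to 2.30 in TX and 1.14 to 2.17 in NN, and at 72 h it was -2.24 to -2.01 in TX and -3.57 to -2.41 in NN. The level under control at 72 h was set by the rule for these 7 as for the others. The rule also left out rows at -0.5 or lower at 1 h. All rows tested are thus no like comparison for the medians and counts at 1 h.

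At 72 h the genes held a median of 14.8% of their control FPKM in TX (2.14% to 25.5%) and 9.43% in NN (0.386% to 24.4%). The median d was -2.32 in TX and -2.70 in NN. Over all rows tested the median was 0.00 in TX and -0.15 in NN, and over the early repressed genes it was -3.14 in TX and -2.85 in NN. The rule used these differences, and the varieties were not compared by a test here. A d of -2 or lower in both varieties, which the rule required, occurred in 3.34% of rows tested. Only 9 genes reached -3 or lower in both. Across the 77 genes the d of TX and NN correlated with r = 0.76 at 1 h, 0.60 at 72 h and 0.87 at 2 w (Spearman 0.63, 0.39 and 0.85). These are descriptions over genes that share their libraries, and the rule narrowed the range at 72 h. The genes nearest the limits had a 72 h d of -2.005 in TX and -2.01 in NN just inside, and -1.98 and -1.95 just outside. At 1 h the nearest values were -0.47 inside and -0.52 outside in both varieties, and for the leaf floor 1.11 FPKM inside and 0.988 FPKM outside.

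At 2 w the genes held much of their control RNA, but a smaller share of them than of all rows lay near control. This is read against controls that the rule also used, so that no test was made. The rule likewise chose the genes for low values at 72 h, so nothing is read from a 2 w level above that at 72 h. The genes held a median of 72.5% of control FPKM in TX and 71.1% in NN with a median d of -0.44 and -0.48, beside -0.13 and -0.22 over all rows tested. With median-ratio scaling of the libraries the members' medians were -0.20 in TX and -0.12 in NN. In 72 of the 77 genes both 2 w libraries exceeded both 72 h libraries in each variety, which the choice of low 72 h values favoured. The 25.9% of rows tested in which this held were not chosen so, and are no like comparison. The 2 w d lay within 1 of 0 in both varieties for 50 of the 77 genes, a smaller share than the 79.8% of rows. It was -1 or lower in both for 14 of the 77, a larger share than the 4.71% of rows. It was 1 or higher in both for 3 genes, where 4.13% of rows were. By variety, 18 of the 77 genes were under -1 in TX and 18 in NN, and 5 and 3 were above 1. Of the 416 early repressed genes 93 and 92 were under -1, and 27 and 49 above 1. Of the 22022 rows tested 1548 and 1873 were under -1, and 1626 and 1360 above 1. A 2 w level away from control was thus not particular to the 77 genes. Under 50% of control FPKM were 18 genes in TX and 21 in NN. Both 2 w libraries were under both controls in both varieties for 33 genes, against 30.0% of rows. One gene, ranked 4, was far under control, with a 2 w d of -2.70 in TX and -4.74 in NN. It was picked out after its values were seen. The levels of TX and NN at 2 w could be tested, since the rule did not use them. None of the 77 genes passed the limma test, and 1.14% of rows were called higher and 1.28% lower in TX. A row was called where the p adjusted by Benjamini-Hochberg over all rows was under 0.05 and the change exceeded 1 on the log2 scale. An unadjusted p under 0.05 was found for 7 of the 77 genes, beside 1994 of the 22022 rows tested.

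HORVU2Hr1G115360 ranked first, that is, its weaker fall at 72 h was the deepest. Its FPKM in TX roots were 293 and 171 in controls, 235 and 245 at 1 h, 6.66 and 24.1 at 72 h, and 239.9 and 233 at 2 w. In NN roots they were 121 and 45.4 in controls, 100.1 and 121 at 1 h, 0.894 and 3.05 at 72 h, and 75.7 and 113 at 2 w. At 72 h all 4 libraries lay below every other root library of the experiment, with a d of -4.02 in TX and -4.76 in NN, and at 2 w the d was 0.08 and 0.31. The mean was higher in TX than in NN at each time, although the difference at 2 w, 1.35 ± 0.58 (log2, SE), was not called (limma adjusted p = 0.477).

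HORVU4Hr1G054870 was the most abundant of the genes in control roots, with a mean of 389 FPKM. It had 628 and 209 FPKM in TX control roots, 340.3 and 339 at 1 h, 45.1 and 45.0 at 72 h, and 569 and 328 at 2 w. In NN roots it had 400.1 and 321 FPKM in controls, 361 and 323 at 1 h, 22.4 and 26.1 at 72 h, and 577 and 456 at 2 w. The 72 h d was -2.98 in TX and -3.83 in NN, and at 2 w both NN libraries were above both NN controls, while the TX libraries overlapped with theirs.

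**Figure D2:**
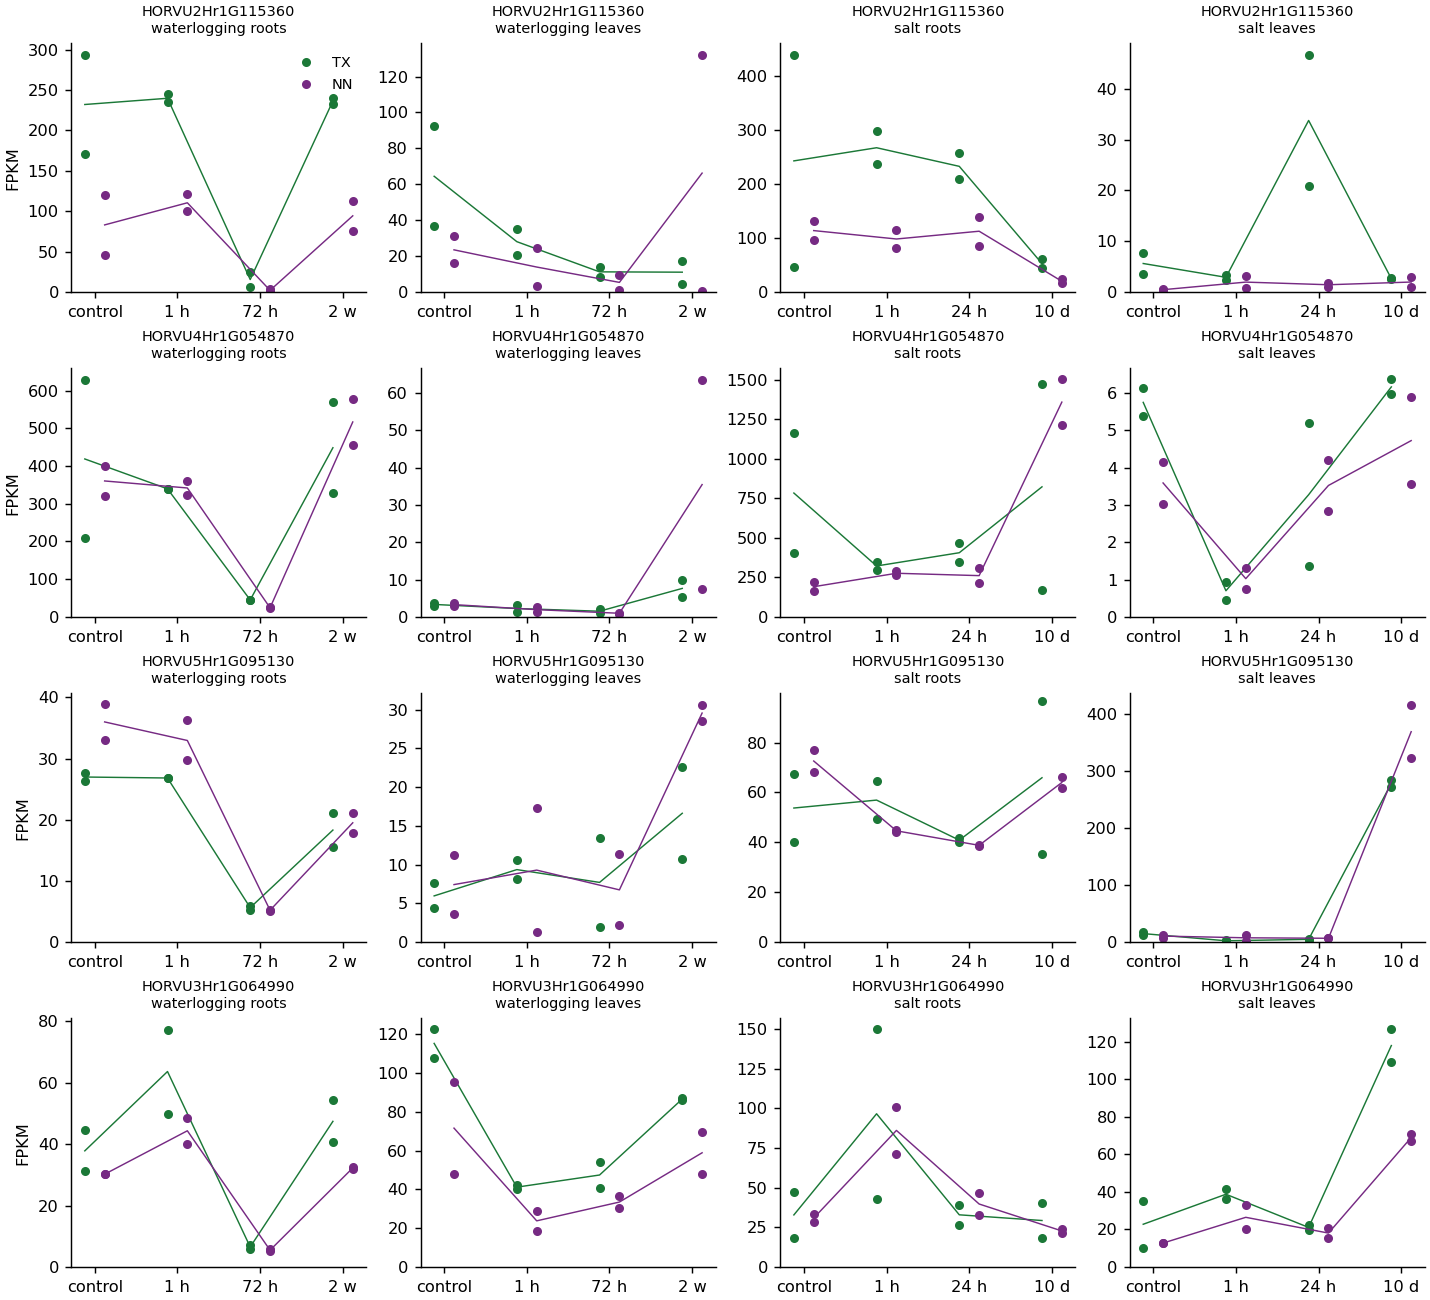
FPKM of the 4 named genes (rows) in every library, with time on the x axis and 1 column each for waterlogging roots, waterlogging leaves, salt roots and salt leaves. Points are libraries of TX (green, left) and NN (purple, right) and lines join group means. All 4 genes are low at 72 h in waterlogging roots, as the rule required, and HORVU5Hr1G095130 reaches 272 to 415 FPKM in salt leaves at 10 d.

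Over the 77 genes the control root mean ran from 6.81 to 389 FPKM with a median of 26.2 FPKM, and the control leaf mean from 1.11 to 217 FPKM with a median of 8.97 FPKM. The leaf level was the higher one in 18 genes. A d of -2 needs at least 3 FPKM in control roots, whereas the leaf floor was 1 FPKM, so a higher root level is in part implied by the rule. In the salt experiment, whose controls the rule did not use, 45 genes were called higher in roots than in leaves of TX and 6 lower (21.0% and 13.3% of rows tested), and 50 higher and 4 lower in NN (27.7% and 11.6%). Of these, 41 were higher in roots and 4 lower in both varieties, an overlap not counted over all rows. The genes called higher made up 58.4% of the 77 in TX and 64.9% in NN. Of the 416 early repressed genes 58.2% and 48.1% were called higher. Of the 43 genes with the late root fall but little leaf RNA, 95.3% and 93% were. A higher root level was thus not particular to the 77 genes. The leaf floor itself did not carry over to the salt experiment in full, where 22 of the 77 genes had a mean under 1 FPKM in the 4 control leaves and 55 were at or above it.

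The leaves of the waterlogged plants showed no fall of these genes that could be told from the spread between libraries. Library medians over the 77 genes in TX leaves were 6.92 and 9.09 FPKM in controls, 10.3 and 12.8 FPKM at 1 h, 13.4 and 3.94 FPKM at 72 h, and 8.25 and 8.42 FPKM at 2 w. In NN leaves they were 15.9 and 5.26 FPKM in controls, 19.5 and 3.88 FPKM at 1 h, 2.97 and 11.8 FPKM at 72 h, and 17.1 and 5.66 FPKM at 2 w. In NN the 2 libraries of a group differed at each time, with 1 of them above 11 FPKM and the other under 6 FPKM, and over the genes the replicates correlated with r as low as 0.587. Another 64 genes, under 0.5 FPKM in all salt libraries and waterlogging roots but at 10 FPKM or more in some waterlogging leaf, moved with these medians. The 7 leaf libraries in which over 50% of the 64 reached 1 FPKM had medians of 10.3 to 19.5 FPKM over the 77 genes and 0.69 to 5.73 FPKM of the root-restricted genes, and the other 9 had 2.97 to 9.09 FPKM and 0 to 1.04 FPKM. The part of these genes in the leaf values was not tested. Without NN control leaf replicate 1, which is among the 7, the leaf floor was met by 66 of the 77 genes.

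**Figure D3:**
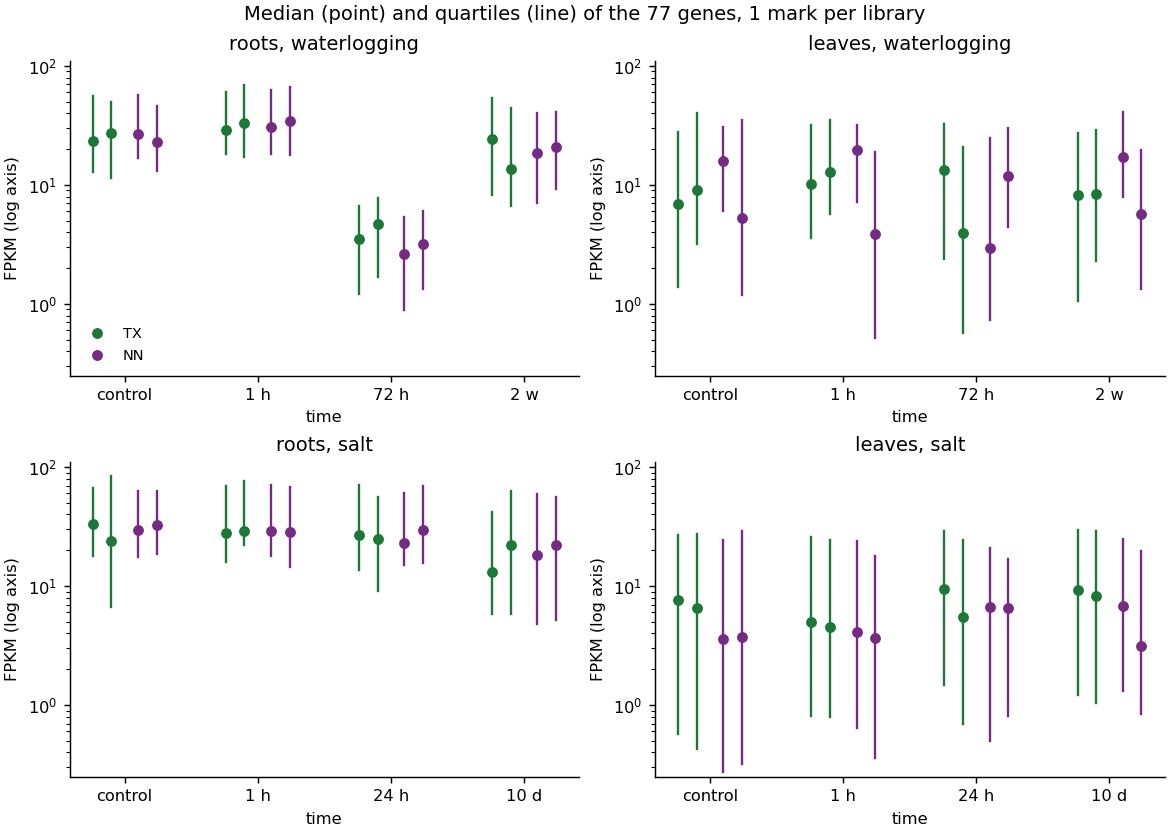
Median (point) and quartiles (line) of FPKM over the 77 genes in each library, on a log axis, by time for roots (left) and leaves (right) of the waterlogging (top) and salt (bottom) experiments, with TX in green and NN in purple. The 4 waterlogging root libraries at 72 h have medians of 2.61 to 4.73 FPKM, and the 2 replicates of NN waterlogging leaves lie far apart at each time.

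Against control leaves, whose level the rule had set a floor on, the limma test called 1 of the 77 genes, lower in TX at 72 h (1.25% of rows called lower, 0.365% higher, and 14 of the genes at an unadjusted p under 0.05). That gene, ranked 18 and picked out after its values were seen, changed by -1.88 ± 0.41 (log2, SE, limma adjusted p = 0.0495). It was not called without the 3 libraries richest in ENSRNA rows. None was called in TX at 1 h (0.641% of rows lower, 0.0748% higher) or 2 w (0.0655% and 0.126%), nor in NN at 1 h (0.683% and 0.0608%), 72 h (0.566% and 0.196%) or 2 w (0.365% and 0.29%). The unadjusted p was under 0.05 for 5 and 9 genes in the TX and for 6, 7 and 9 genes in the NN comparisons. Over the 21378 rows tested it was so for 2407, 2842 and 2155 rows in TX at 1 h, 72 h and 2 w. In NN it was so for 2950, 2250 and 2787 rows at these times. In the same fits 11.3% of the 416 early repressed genes were called lower in TX at 1 h and 19.7% at 72 h. In NN 13.9% and 12% of them were, so falls in leaves were called in that group. At 72 h against 1 h, with no library of the rule, limma called none of the 77 genes in either variety. An unadjusted p under 0.05 was found for 6 of them in TX (0% of rows called lower, 0.014% higher) and 10 in NN (0.0281% and 0.0889%). The median change was -0.63 in TX and -0.41 in NN, against -0.05 and 0.00 over all rows tested. Of the 21378 rows, 726 in TX and 1471 in NN had an unadjusted p under 0.05 in this comparison.

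In salt roots at 1 h and 24 h limma called none of the 77 genes in either variety with all libraries. Without TX control replicate 1, however, genes were called in TX at both times, most of them higher. Calls over all rows were not counted in that fit, so this shows only that the result depended on that library. Leaving out any other library of the groups compared gave no call at these times. With all libraries an unadjusted p under 0.05 was found for 19 and 12 genes in TX and for 9 and 4 genes in NN at 1 h and 24 h. Over the 22314 rows tested it was found for 3936 and 2817 rows in TX and for 1592 and 1651 in NN. With all libraries the rows called lower and higher were 0.977% and 0.82% in TX at 1 h, and 0.238% and 0.578% in TX at 24 h. In NN they were 0.0314% and 0.0224% at 1 h, and 0.0493% and 0.108% at 24 h. The median changes of the genes were 0.34 and 0.01 in TX and -0.09 and -0.15 in NN.

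At 10 d of salt 26 of the 77 genes (33.8%) were called lower in NN roots, where 13.5% of all rows tested were, and 7 genes (9.09%) were called higher, where 9.76% of rows were. The 26 changes ran from -4.14 to -1.22 with a median of -2.55 on the log2 scale, and the 7 from 1.10 to 2.83. The median over the 77 genes was -0.86, beside -0.15 over all rows. Of the 416 early repressed genes, which shared the fall at 72 h of waterlogging, 36 (8.65%) were called lower and 77 (18.5%) higher in the same comparison, with a median of 0.41. Of the 43 genes with the late root fall but little leaf RNA, 25 (58.1%) were lower and 1 was higher, with a median of -2.29. The 3 groups thus differed in this comparison by their counts, which were not tested against each other. Of the 7 genes that had risen by over 1 at 1 h of waterlogging, the salt root change at 10 d ran from -4.14 to 0.02 with a median of -3.38 in NN, and from -1.07 to 0.67 with a median of -0.57 in TX. The medians of the other 70 were -0.75 in NN and -0.46 in TX. The 7 were split off by 1 h values that the rule used, and other rows with such a rise were not summarised. A link between the early rise and the salt change was not tested. Leaving out any 1 of the 4 NN libraries lowered the count of the 77 genes called, and genes called lower were lost each time. The count of 26 thus depended on single libraries. Among them was replicate 2 at 10 d, the library that held TX-only genes. With no filter on low values 18 were lower and 1 was higher. Calls over all rows were not counted in these fits, so whether the excess over all rows held in them was not tested.

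HORVU2Hr1G115360 was among the 26, with 16.5 and 23.0 FPKM in NN roots at 10 d against 130.4 and 96.3 FPKM in NN controls. The libraries did not overlap, and the change was -2.47 ± 0.75 (log2, SE, limma adjusted p = 0.0298). HORVU4Hr1G054870 was among the 7 called higher and had 1503 and 1212 FPKM in NN roots at 10 d against 218 and 164 FPKM in NN controls. The change was 2.83 ± 0.78 (limma adjusted p = 0.0204), and these 2 libraries exceeded every waterlogging root library of this gene. Neither call held without a filter on low values (adjusted p = 0.0989 and 0.0774) or when 1 of the 4 libraries was left out (0.089 to 0.146 and 0.0726 to 0.113).

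In TX roots at 10 d of salt 4 of the 77 genes (5.19%) were called lower, where 1.27% of rows were, and none was called higher, where 2.25% of rows were. The 4 changes ran from -2.45 to -1.18, and all 4 genes were also called lower in NN, an overlap not counted over all rows. An unadjusted p under 0.05 was found for 20 of the 77 genes, beside 4754 of the 22314 rows tested. Of the 416 early repressed genes 14 (3.37%) were called lower and 15 (3.61%) higher here. The count changed when any 1 of the 4 TX libraries was left out, most without replicate 2 at 10 d. Without TX control replicate 2 it was 19 lower and 1 higher, and without TX control replicate 1 it was 4 lower and 4 higher. Without TX at 10 d replicate 2 it was 23 lower and 4 higher, and without replicate 1 it was 2 lower. HORVU2Hr1G115360 had 44.5 and 60.4 FPKM in TX roots at 10 d against 438 and 46.3 FPKM in TX controls, so that its second control lay within the 10 d range, and its change of -1.45 ± 0.75 was not called (limma adjusted p = 0.292). Without that control it was -3.06 ± 0.39 (adjusted p = 0.00327), and without TX control replicate 1 it was 0.16 ± 0.39 (adjusted p = 0.83). HORVU4Hr1G054870 had 172 and 1472 FPKM in TX roots at 10 d against 405 and 1161 FPKM in TX controls, with a change of -0.44 ± 0.78 (adjusted p = 0.789). Without replicate 2 at 10 d the change was -1.99 ± 0.53 (adjusted p = 0.0221), without replicate 1 at 10 d it was 1.10 ± 0.53 (adjusted p = 0.31), and without TX control replicate 2 it was 0.32 ± 0.89 (adjusted p = 0.872). The direction in TX roots was thus not settled for either gene.

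The difference between the varieties in the 10 d root response, TX minus NN, was tested with limma. An unadjusted p under 0.05 was found for 24 of the 77 genes, beside 5118 of the 22314 rows tested. The difference was called for none of the 77 genes (0.574% of rows higher, 0.82% lower, the median of all rows being 0.27). Without TX control replicate 1 it was called for 34 genes (25 higher, 9 lower), and without TX at 10 d replicate 2 for 29 (11 higher, 18 lower). Across the genes the 10 d root changes of TX and NN correlated with r = 0.22 (Spearman 0.26). In control roots, TX against NN, 1 gene was called higher and 2 lower (2.38% and 2.81% of rows), and without TX control replicate 1 the counts were 7 and 24. The counts of calls for TX roots at 10 d of salt thus depended on single libraries. In the fits without 1 library calls over all rows were not counted, so those counts are no result about the 77 genes.

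**Figure D4:**
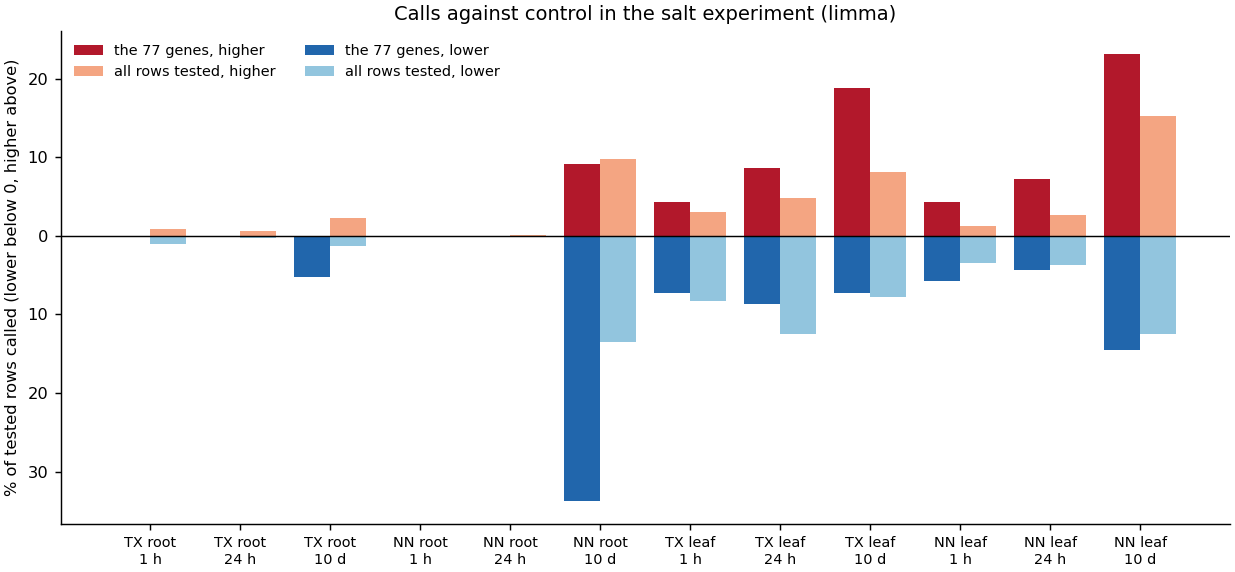
Percent of rows called higher (above 0) and lower (below 0) than control in the salt experiment, for the 77 genes (dark bars) and for all rows tested (light bars), by variety, tissue and time. In NN roots at 10 d 33.8% of the genes were called lower against 13.5% of all rows, and in leaves at 10 d 18.8% in TX and 23.2% in NN were called higher against 8.15% and 15.3%.

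In salt leaves genes were called in both directions. Of the 77, 69 passed the filter of 0.5 FPKM in at least 2 leaf libraries, and all 8 that did not were among the 26 called lower in NN roots at 10 d. At 10 d 13 of the 69 (18.8%) were called higher in TX, where 8.15% of rows were, and 5 (7.25%) lower, where 7.83% were. In NN 16 (23.2%) were called higher, where 15.3% of rows were, and 10 (14.5%) lower, where 12.5% were. Of the 409 early repressed genes that passed the same filter, 15.9% were called higher and 3.67% lower in TX, and 29.6% higher and 12.2% lower in NN. The share called higher thus lay above that of all rows in both groups of genes. The rises had medians of 1.70 in TX and 2.05 in NN on the log2 scale, the falls -1.82 in both. In both varieties 12 genes were called higher and 5 lower, and none was called in opposite directions. These overlaps, and those between roots and leaves below, were not counted over all rows, so they are no result about the 77 genes. Across the genes the leaf changes of TX and NN correlated with r = 0.86 (Spearman 0.79), while r between the root and leaf changes of a variety was 0.03 in TX and 0.01 in NN. Of the 26 genes called lower in NN roots, 5 were called higher in NN leaves, 3 lower, and 10 neither. For the difference of the 10 d leaf response, TX minus NN, limma called 1 of the 69 genes lower and none higher (1.13% and 0.92% of rows). An unadjusted p under 0.05 was found for 10 of the 69, beside 3841 of the 19782 rows tested.

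**Figure D5:**
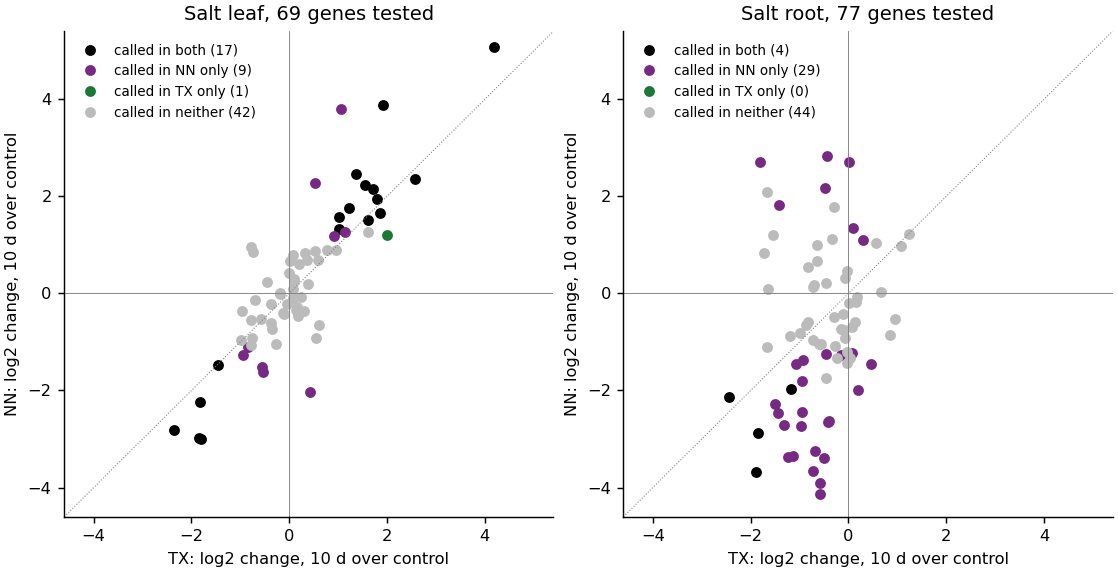
Log2 change at 10 d of salt over control in TX (x axis) against NN (y axis) for leaves (left, 69 genes) and roots (right, 77 genes), 1 point per gene, coloured by the variety in which it was called. In leaves 17 genes were called in both varieties, and in roots 4 were called in both and 29 in NN alone.

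HORVU5Hr1G095130 and HORVU3Hr1G064990 are given because they had the largest leaf rises at 10 d, by the smaller of their rises in TX and NN, among the genes called higher in both varieties, and their fall at 72 h of waterlogging was set by the rule. HORVU5Hr1G095130 had 272 and 284 FPKM in TX leaves at 10 d against 11.9 and 17.3 FPKM in TX controls, a change of 4.18 ± 0.58 (log2, SE, limma adjusted p = 0.000586). In NN leaves it had 322 and 415 FPKM at 10 d against 12.7 and 7.73 FPKM in controls, a change of 5.07 ± 0.58 (adjusted p = 5.98e-05). The rise came after 24 h, when the leaves held 5.37 and 3.71 FPKM in TX and 6.62 and 6.22 FPKM in NN. In TX leaves at 1 h, with 2.55 and 1.51 FPKM, it was called lower than control, by -2.37 ± 0.58 (adjusted p = 0.0153). In salt roots at 10 d the same gene had 35.1 and 96.6 FPKM in TX against 67.2 and 40.2 FPKM in TX controls, and 66.2 and 61.8 FPKM in NN against 77.1 and 68.1 FPKM in NN controls, and was called in neither variety (adjusted p = 0.855 and 0.764). In waterlogged roots it had 26.3 and 27.6 FPKM in TX controls, 26.7 and 26.9 at 1 h, 5.94 and 5.28 at 72 h, and 15.5 and 21.1 at 2 w, and in NN 33.0 and 39.0, 29.7 and 36.2, 5.13 and 5.24, and 17.8 and 21.2 FPKM at these times.

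HORVU3Hr1G064990 had 126 and 109 FPKM in TX salt leaves at 10 d against 35.4 and 10.1 FPKM in TX controls, a change of 2.56 ± 0.42 (log2, SE, limma adjusted p = 0.00149). In NN leaves it had 67.1 and 70.7 FPKM at 10 d against 12.8 and 12.6 FPKM in controls, a change of 2.35 ± 0.42 (adjusted p = 0.00108). In salt roots at 10 d it was called in neither, with 40.6 and 18.0 FPKM in TX against 47.5 and 18.1 FPKM in TX controls, and 21.2 and 24.2 FPKM in NN against 28.4 and 33.3 FPKM in NN controls. In waterlogged roots it had 31.1 and 44.5 FPKM in TX controls, 49.9 and 77.3 at 1 h, 5.87 and 7.13 at 72 h, and 40.6 and 54.2 at 2 w. In NN roots it had 30.2 and 30.1 FPKM in controls, 48.6 and 40.04 at 1 h, 5.88 and 5.04 at 72 h, and 32.6 and 31.8 at 2 w.

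Earlier in salt leaves fewer genes were called. At 24 h 6 of the 69 were higher and 6 lower in TX (4.79% and 12.5% of rows), and 5 higher and 3 lower in NN (2.61% and 3.74%). At 1 h 3 were higher and 5 lower in TX (2.98% and 8.34% of rows), and 3 higher and 4 lower in NN (1.22% and 3.4%). At 24 h 2 were higher and 2 lower in both varieties, and at 1 h 1 was higher and 2 lower, overlaps not counted over all rows. The direction depended on the scaling, since the median of all rows tested lay at -0.35 and -0.08 in TX and NN leaves at 24 h and at -0.27 and -0.15 at 1 h. With median-ratio scaling, which brought these medians within 0.02 of 0, 12 genes were higher and 2 lower in TX and 7 and 2 in NN at 24 h, and 5 and 3 in TX and 4 and 3 in NN at 1 h. Of all calls over the rows, the share that was higher then moved to 67.5% against 27.7% as deposited in TX at 24 h, and to 66.1% against 26.4% at 1 h. Single libraries mattered too, although calls over all rows were not counted in the fits without 1 library. Without TX control replicate 2 the calls in TX were 11 higher and 8 lower at 24 h and 5 higher and 8 lower at 1 h. Without NN control replicate 1 or replicate 2 none was called in NN at 1 h, and without replicate 1 at 1 h, which held TX-only genes, 1 was higher and 3 lower. HORVU4Hr1G054870 was lower in TX at 1 h, with 0.942 and 0.462 FPKM against 5.37 and 6.13 FPKM in TX controls, by -2.0004 ± 0.39 (log2, SE, limma adjusted p = 0.00578). HORVU2Hr1G115360 was higher in TX at 24 h, with 20.9 and 46.6 FPKM against 7.74 and 3.46 FPKM in TX controls, by 2.37 ± 0.51 (adjusted p = 0.00522), and was back at 2.75 and 2.48 FPKM at 10 d. In control leaves, TX against NN, 5 of the 69 genes were called higher and 2 lower (5.24% and 3.83% of rows), and without TX control replicate 2 11 were higher and 4 lower. HORVU2Hr1G115360 was among the 5, with 7.74 and 3.46 FPKM in TX and 0.342 and 0.545 FPKM in NN, a difference of 2.12 ± 0.51 (adjusted p = 0.0179).

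By the chromosome digit of the identifier, 14 of the 77 genes (18.2%) lay on chromosome 1 against 12.4% of tested HORVU rows, 16 (20.8%) on chromosome 2 against 16.4%, 14 (18.2%) on chromosome 5 against 15.4%, and 2 (2.60%) on chromosome 6 against 10.8%. Chromosomes 3, 4 and 7 held 12, 6 and 10, and 3 were unplaced. Only 1 pair had running numbers 10 apart, the usual step between neighbours, and 4 pairs were within 100. Over the 16 waterlogging roots the log2(FPKM + 1) of these 4 pairs correlated with r of 0.747 to 0.983. The rule chose all 77 genes for the same pattern in most of these libraries, so high values are in part set by it. Over the 16 salt roots, which the rule did not use, r was 0.004 to 0.961. Pairs of the genes that lay further apart were not compared, so nothing is read from these values about neighbours.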

How the data were processed

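The deposited values are FPKM as the authors computed them, in a table for each experiment. HISAT, HISAT2 and featureCounts 1.5.0 are named in the submitters' processing notes. The genome build was not given in the sources used here. The waterlogging workbook held 82 other value columns in 5 working sheets, which stayed unused. Groups follow the variety, tissue and time in the sample labels.

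The genes and the lists beside them were chosen with earlier results of these data known. Identifiers are given for the first gene in the ranking, for the most abundant in control roots, and for the 2 called higher in both varieties with the largest smaller rise in salt roots at 10 d, or in leaves where fewer than 2 passed in roots, as here. Others singled out are given by rank.

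Tests used limma 3.58.1 in R 4.3.3. Log2(FPKM + 1) was fitted by group means for each experiment and tissue over 16 libraries (32 for root against leaf), and the variance was moderated along its trend with level. The log scale understates changes of low genes. Rows needed 0.5 FPKM in 2 or more libraries, and Benjamini-Hochberg adjustment covered all of them. Tests were made within a table only. Depth relative to the deepest library came from pairs of low values, whose ratio is most often that of a single fragment in each. Absolute depth is unknown. Alternatives were a pseudocount of 0.1, no filter, median-ratio scaling, a replicate block and leaving out each replicate. Leaving out the 3 leaf libraries richest in ENSRNA rows, equal totals over HORVU rows for the calls, and other readings of the leaf floor were chosen after seeing the data.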

Additional observations from a re-analysis of the deposited data

Results flagged for a closer look

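At 10 d of salt the leaf response of 1 of the 69 genes tested differed between the varieties by the limma test of the difference itself. This gene, ranked 31 and picked out after its values were seen, had 18.8 and 21.7 FPKM in TX leaves at 10 d against 12.3 and 15.3 FPKM in TX controls, and 24.98 and 23.4 FPKM in NN leaves at 10 d against 3.58 and 4.88 FPKM in NN controls. Both controls of TX lay above both controls of NN. The response of TX minus that of NN was -1.75 ± 0.40 (log2, SE, adjusted p = 0.0489), and 1.13% of rows were called in this direction. No gene was called in this comparison when either TX library at 10 d, either NN control or NN at 10 d replicate 2 was left out, and 2 genes were lower and 4 higher without TX control replicate 2. With 2 libraries per group no test for single outlying libraries was made.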

How the results depend on the processing

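Of 281 recomputed counts and medians, 219 stayed within 1.5 times, or 1 SD, of the value given above. With no filter on low values the genes called numbered 19 in NN roots and 2 in TX roots at 10 d of salt, 4 in NN leaves at 1 h, 0 in salt control roots and 4 in salt control leaves between varieties. Median-ratio scaling gave 1 in TX roots at 1 h of salt and 1 in salt control roots between varieties, a 2 w median of -0.12 in NN waterlogging roots, and -0.0054 for HORVU5Hr1G095130 in TX salt roots at 10 d. The 1 gene called for the leaf response between varieties became 0 with a pseudocount of 0.1, no filter, the replicate block or equal HORVU totals. The 1 gene of TX waterlogging leaves at 72 h became 0 with a pseudocount of 0.1, no filter, median-ratio scaling, the replicate block or without the 3 libraries richest in ENSRNA rows. NN waterlogging leaves at 2 w gave 1 with a pseudocount of 0.1 and 1 without those libraries. Over all rows the scaling moved the share of calls that were higher by over 10 percentage points, to 28.6% against 41.7% as deposited in NN roots and 57.3% against 45.6% in TX roots at 1 h of salt, 61.9% against 26.4% in NN leaves at 1 h, 33.0% against 57.8% in control leaves between varieties, 61.3% against 44.8% for the leaf response between them, 81.1% against 65.9% in TX and 65.7% against 44.3% in NN waterlogging leaves at 2 w, and 58.9% against 70.4% for NN control root against leaf. The cause of these changes was not tested.

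Replicate numbers were not taken as pairs, since same-numbered libraries deviated together (r above 0.1) in 4 to 13 of 28 pairs of groups per fit. The replicate block gave 1 gene in TX roots at 1 h of salt and 2 for the root response between varieties, and beside these and the 2 results named with it above it moved no count by over 1.5 times.

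Leaving out 1 library at a time, the counts for salt against control ran from 11 to 15 in NN roots at 10 d, and in TX roots from 0 to 30 at 1 h and 0 to 15 at 24 h (the highest in both without TX control replicate 1), and 2 to 27 at 10 d. In NN leaves they ran from 0 to 8 at 1 h and 5 to 6 at 24 h, and in TX leaves from 5 to 13 at 1 h and 9 to 19 at 24 h, the highest in each without TX control replicate 2. They were 0 to 31 in control roots and 2 to 15 in control leaves between varieties, and 0 to 34 and 0 to 6 for the 10 d response of roots and leaves between them. In waterlogging they were 0 to 1 in NN leaves at 2 w, 0 in TX leaves at 72 h, and 0 to 2 in roots at 2 w between varieties. In TX salt roots at 10 d the named changes ran from -3.06 to 0.16 (HORVU2Hr1G115360), -1.99 to 1.10 (HORVU4Hr1G054870), -0.55 to 0.88 (HORVU5Hr1G095130) and -0.79 to 0.55 (HORVU3Hr1G064990). The rule kept 57 to 77 of the genes without 1 library, 76 with a pseudocount of 0.1 and 67 with median-ratio scaling. With 2 libraries per group, and 1 where 1 was left out, the spread was pooled over the fit, and the lone library was assumed to vary like the other groups. Calls over all rows were not counted in the fits without 1 library, so those counts show dependence on single libraries alone.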
